A study of Mus musculus with 4 samples.

Results

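Retinoic acid synthesis and transport was followed through 9 genes, chosen by symbol among the 31053 genes of the count tables, with earlier results of these data known. These were Aldh1a1, Aldh1a2, Aldh1a3, Rdh10, Dhrs3, Crabp1, Crabp2, Stra6 and Cyp26b1, and all 9 were present. They were measured by droplet single-cell RNA sequencing (10x Genomics 3′ chemistry) in the neonatal oviduct and uterus of the mouse. All animals were wild type, of the strain CD1 (ICR, Strain Code:022), received no treatment and were on postnatal day 3. Each organ had 2 libraries, prepared from pools of 3 and 4 neonates, and the same neonates gave both organs. The groups therefore differed in organ only, and no library stands for a single animal.

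Retinoic acid is made from retinol (vitamin A) and acts through nuclear receptors on gene expression. STRA6 is a cell-surface receptor that takes up retinol from its carrier, RDH10 oxidises retinol to retinaldehyde, and DHRS3 reduces retinaldehyde back to retinol. ALDH1A1, ALDH1A2 and ALDH1A3 oxidise retinaldehyde to retinoic acid, CRABP1 and CRABP2 bind retinoic acid in the cytoplasm, and CYP26B1 breaks it down. The oviduct and uterus both develop from the Müllerian duct, where retinoic acid made in the stroma is known to act on the fate of the epithelium.

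The 4 libraries held 5716 to 7808 barcodes and 61117726 to 114419939 UMIs (unique molecules) each. Pairs of libraries shared 8 to 15 barcodes, at most 0.262% of the smaller library. After filters on genes, mitochondrial UMIs and probable doublets, the remaining cells were each assigned by marker genes. The libraries are labelled as mesenchymal and epithelial cells, but other cells were present. Mesenchyme made up 10446 cells and epithelium 485, beside 1536 smooth muscle cells, 1085 mesothelial cells, 689 pericytes, 591 blood endothelial cells and 207 myeloid cells. All 10 epithelial markers exceeded 10 CPM (counts per library and class, scaled to the same total) in the epithelium of every library, while the 9 mesenchymal markers summed to 72.4 to 108 CPM there, against 3832 to 9225 CPM in mesenchyme. Mesothelium also held mesenchymal markers (6335 to 10981 CPM in sum) beside its own 7, which were all above 10 CPM. Uterine epithelium had 52 and 59 cells. Counts were summed per library and class, so that a value in CPM is a share of the RNA molecules of that class in 1 library.

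The organ difference was tested gene by gene within each class with edgeR's quasi-likelihood test, with Benjamini-Hochberg adjustment over all genes tested. A gene was called at an adjusted p under 0.05, and fold changes are oviduct minus uterus on the log2 scale. In epithelium all 8 members tested were called, 3 with the oviduct above and 5 with the uterus above, where 23.4% of all genes were called. In mesenchyme 7 of 9 were called, 2 above and 5 below the uterus, against 43.9% of all genes. Smooth muscle had 6 of 9 called against 19.9% of all genes, mesothelium 5 of 9 against 7.99%, and pericytes 4 of 9 against 5.41%. Aldh1a2 in epithelium and Aldh1a1 in pericytes had 0 uterine UMIs. Uterine libraries 1 and 2 held 0 and 3 UMIs of Aldh1a1 in smooth muscle and 7 and 7 of Aldh1a3 in pericytes. These genes passed the filter on low counts through the oviduct, so these calls could only point there. Aldh1a1 in epithelium (2.51 and 1.54 CPM in the oviduct) passed it through the uterus and could only point there. Aldh1a1 in mesenchyme, Aldh1a3 in smooth muscle and Crabp2 in pericytes fell short of the filter in uterus replicate 2, so they passed it with the oviduct's counts. The members were chosen with earlier results of these data known, so the counts beside these shares are a description. DESeq2 called 5 of 9 members tested in epithelium (1450 of 18725 genes) and 1 of 9 in pericytes (230 of 18049 genes). The epithelial count was also lower without oviduct replicate 2, and the pericyte count with any 1 library left out. Fewer of all genes were called in those fits too. The median log2 fold change of the members tested was -1.33 in epithelium and -0.34 in mesenchyme, where the medians of all genes were 0.01 and -0.0047. None of the 3 members tested in blood endothelium was called at an adjusted p under 0.05, nor was Dhrs3, the 1 member tested in myeloid cells, where 4.27% and 0.158% of all genes were called. DESeq2 called 0 in both classes, and edgeR without adjustment passed 0.05 for Rdh10 and Cyp26b1 in endothelium and for 0 members in myeloid cells. Cyp26b1 was too low for the organ test in epithelium. Set against mesenchyme within an organ, epithelium differed for 9 of 9 members in the oviduct (66.1% of all genes) and 9 of 9 in the uterus (49.6%). The organ effects of these layers differed for 8 of 9 (21.3%). Uterine epithelium held 0 UMIs of Aldh1a2 and, in libraries 1 and 2, 1 and 0 of Cyp26b1. Both passed the filter through other sums, so their uterine calls could only point to mesenchyme. The Aldh1a2 difference of organ effects rests on the same 0 UMIs. Mesothelium differed from mesenchyme for 8 of 9 members in each organ (59.0% and 39.6% of all genes), and the organ effects for 6 of 9 (18.3%).

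**Figure D1:**
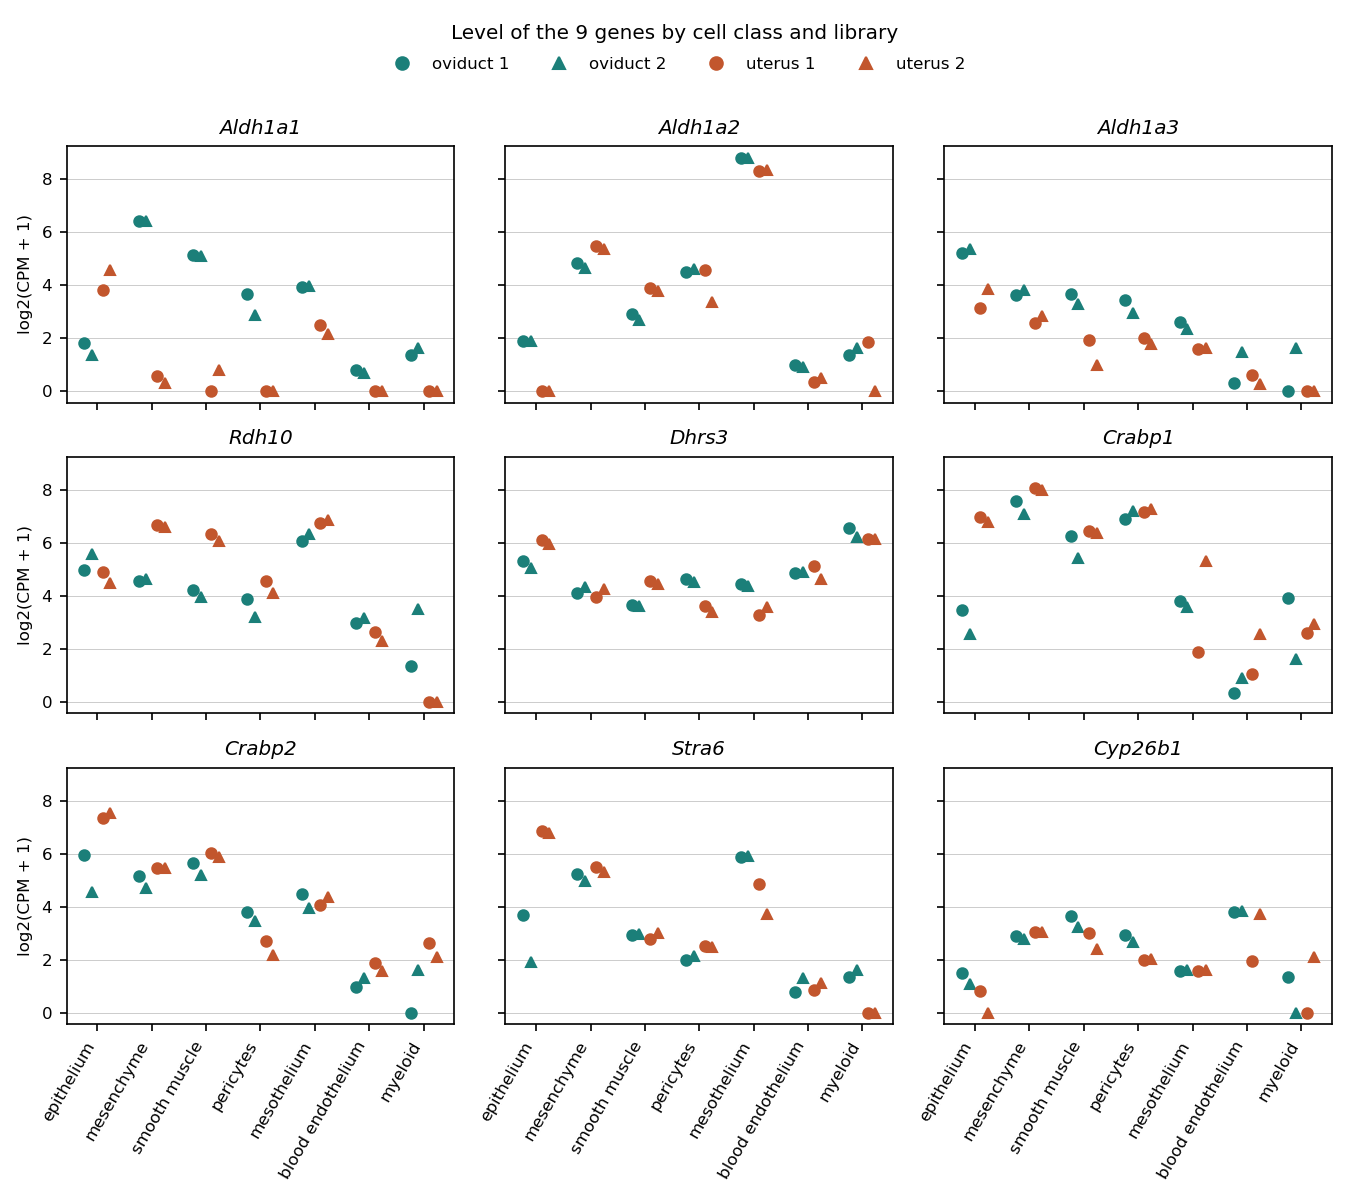
Levels of the 9 genes in 7 cell classes, as log2(CPM + 1) of the counts summed per library (circles, replicate 1; triangles, replicate 2; teal, oviduct; orange, uterus). Aldh1a1 in mesenchyme was at 82.9 and 83.4 CPM in the oviduct and below 0.5 CPM in both uterine libraries, and Aldh1a2 was highest in mesothelium in all 4 libraries.

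Aldh1a1 showed the widest gap between organs in mesenchyme, and the gap turned round between stroma and epithelium. In mesenchyme it stood at 82.9 and 83.4 CPM in the oviduct libraries and at 0.491 and 0.239 CPM in the uterine ones. In epithelium it stood at 2.51 and 1.54 CPM in the oviduct and at 13.0 and 22.6 CPM in the uterus. The organs did not overlap in either class. The difference was 7.80 ± 0.16 (SE) in mesenchyme (edgeR adjusted p = 1.32e-10), a 227-fold higher mean in the oviduct, and -3.07 ± 0.39 in epithelium (edgeR adjusted p = 0.000114), an 8.80-fold higher mean in the uterus. Between the layers this effect of organ differed by -10.78 ± 0.45 (edgeR interaction, adjusted p = 3.36e-28), and by -9.80 to -11.67 with 1 library left out. RNA from burst cells in the droplets could account for an estimated 26.9% and 59.5% of the Aldh1a1 UMIs of oviduct epithelium, against 0.111% and 0.0755% in uterine epithelium. Without cells holding a marker of multiciliated cells the epithelial difference was -2.13 and not called (adjusted p = 0.0758).

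Aldh1a1 was highest in oviduct mesenchyme, followed by smooth muscle at 33.5 ± 0.353 CPM (SD, n = 2), mesothelium at 14.4 ± 0.439 CPM and pericytes at 8.86 ± 3.72 CPM, and neighbours in this order did not overlap. In the uterus the order began with epithelium at 17.8 ± 6.84 CPM, followed by mesothelium at 4.02 ± 0.88 CPM. In uterine smooth muscle 3 UMIs were counted, which gave an oviduct to uterus ratio of 86.1 (95% exact interval 29.3 to 419, counting error only). Uterine pericytes held 0 UMIs of Aldh1a1, so the oviduct level was at least 16.3-fold higher with a floor of 3 counts over both uterine libraries. The smooth muscle and pericyte differences were called (edgeR adjusted p = 4.9e-07 and 0.000545), the second not without uterus replicate 2 (adjusted p = 0.0589). Pericytes held all 9 mesenchymal markers, at 4164 and 4027 CPM in sum in the oviduct and 3191 and 2466 CPM in the uterus, and their part in the pericyte difference was not tested. In mesothelium, where mesenchymal cells of the same oviduct held more Aldh1a1, the difference was 1.84 ± 0.32 (edgeR adjusted p = 0.00367). Aldh1a1 has a close copy, Aldh1a7, to which 141, 92, 12 and 13 UMIs were assigned in the cells of oviduct libraries 1 and 2 and uterine libraries 1 and 2. Aldh1a1 had 4865, 3424, 42 and 76 there, and how reads shared by both genes were counted is not given in the sources used here. Aldh1a1 lies on chromosome 19 at 20492715 to 20643465 (GRCm38, plus strand), where the annotation places 2 genes on the opposite strand.

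Aldh1a2 was highest in the mesothelium, the outer lining of both organs. It stood at 439 and 444 CPM in oviduct mesothelium and at 317 and 320 CPM in uterine mesothelium. The next class, mesenchyme, held 27.0 and 23.6 CPM in the oviduct and 43.4 and 39.8 CPM in the uterus. Mesothelium exceeded mesenchyme by 4.02 ± 0.08 in the oviduct and 2.72 ± 0.08 in the uterus (edgeR adjusted p = 1.74e-19 and 6.54e-16). The organ effect thus ran in opposite directions in the 2 layers. Mesenchyme was higher in the uterus by 0.75 ± 0.09 (log2 -0.75, edgeR adjusted p = 5.19e-05) and mesothelium was higher in the oviduct by 0.48 ± 0.12 (adjusted p = 0.0235). The difference between these effects was 1.30 ± 0.11 (edgeR interaction, adjusted p = 2.45e-08). The mesothelial call was lost without uterus replicate 1 (adjusted p = 0.197), without uterus replicate 2 (0.129) and after subtracting free RNA (0.0596), with fold changes of 0.45 to 0.50.

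A UMI of Aldh1a2 was found in 97.5% and 96.9% of oviduct mesothelial cells and in 94.7% and 93.3% of uterine ones. In mesenchyme the shares were 15.8% and 13.1% in the oviduct, against 33.2% and 31.7% in the uterus. In epithelium they were 6.92% and 5.74% in the oviduct, and 0 of 52 and 0 of 59 cells in the uterus, where exact 95% intervals reach 6.85% and 6.06%. Uterine epithelial cells were shallower, and thinned to 2000 UMIs the oviduct shares were 0.833% and 1.40%, against 0 of 44 and 0 of 39 uterine cells, so no difference in this share was detectable at equal depth. With every cell thinned to 2000 UMIs the mesothelial shares were 56.4%, 50.9%, 49.3% and 38.3%, and the mesenchymal ones 4.5%, 4.5%, 8.2% and 8.5%, in the order oviduct 1 and 2 and uterus 1 and 2. The higher share in uterine mesenchyme therefore held at equal depth. Oviduct mesothelium, at 471 and 479 cells, gave 76.8% and 81.2% of all Aldh1a2 UMIs of the oviduct libraries. In the uterus mesothelium had 75 and 60 cells and gave 21.6% and 21.4%, while mesenchyme gave 59.7% and 60.2%. Cell shares after dissociation need not be those of the organ.

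In epithelium Aldh1a2 was at 2.69 and 2.66 CPM in the oviduct and had 0 UMIs in the uterus, where that depth allows up to 0.898 CPM. The oviduct level was at least 2.98-fold higher, and the organ difference was called (edgeR adjusted p = 0.0104) but not by DESeq2 (0.0944), with classes from clusters (0.0617) or without uterus replicate 2 (0.0727). Free RNA could account for an estimated 47.2% and 50.2% of these oviduct UMIs. The 7 mesothelial markers summed to 204 and 223 CPM in oviduct epithelium and to 71.8 and 42.3 CPM in uterine epithelium, with 0 and 1 of them at 0 in the oviduct and 2 and 4 at 0 in the uterus, and their part in this difference was not tested. In smooth muscle Aldh1a2 was higher in the uterus (6.56 and 5.33 against 13.8 and 12.6 CPM, log2 -1.18 ± 0.23, edgeR adjusted p = 0.00335). In pericytes the uterine values of 22.7 and 9.35 CPM spanned the oviduct values of 21.7 and 23.0 CPM (adjusted p = 0.464). Aldh1a2 lies on chromosome 9 at 71215789 to 71296243.

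Aldh1a3 was highest in oviduct epithelium. Oviduct epithelium held 35.6 and 40.2 CPM and uterine epithelium 7.64 and 13.3 CPM. Mesenchyme held 11.2 and 13.1 CPM in the oviduct and 4.85 and 6.04 CPM in the uterus. The oviduct was higher without overlap in both classes, by 1.92 ± 0.26 in epithelium and 1.11 ± 0.13 in mesenchyme (edgeR adjusted p = 0.000179 and 5.86e-05). It was also higher in the oviduct in smooth muscle (10.2 ± 2.06 against 1.89 ± 1.3 CPM, SD, n = 2, log2 2.44 ± 0.39, edgeR adjusted p = 0.00103), by 1.83 to 3.33 when either uterine library was left out. The pericyte difference of 1.60 ± 0.44 was called at an adjusted p of 0.0452, but not by DESeq2 (0.673), with doublets kept (1.03, adjusted p = 0.127) or in any fit that left out 1 library (0.0681 to 0.441). The effect in epithelium exceeded that in mesenchyme by 0.93 ± 0.29 (edgeR interaction, adjusted p = 0.0125), and this was not called by DESeq2 (0.222), without oviduct replicate 2 (0.0583), without uterus replicate 1 (0.11) or without cells holding a multiciliated marker (0.141). In mesothelium it stood at 5.10 and 4.09 against 1.99 and 2.04 CPM (adjusted p = 0.207). Epithelium was above mesenchyme by 1.64 ± 0.13 in the oviduct (edgeR adjusted p = 1.74e-17) and by 0.71 ± 0.28 in the uterus (adjusted p = 0.0303). The uterine call was lost under DESeq2 (0.08) and without uterus replicate 2 (0.616). With each cell weighted equally, uterine epithelium held 1.03 and 3.37 CPM of Aldh1a3 and uterine mesenchyme 4.16 and 5.49 CPM, the reverse order. Aldh1a3 lies on chromosome 7 at 66390890 to 66427517.

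As shares of the UMIs of the 3 dehydrogenase genes, the leading gene differed between layers and, in mesenchyme and epithelium, between organs. Because 3′ counting records 1 tag per molecule, these shares are not scaled by gene length, although capture can differ between genes. Mesothelium held 95.8% and 95.9% Aldh1a2 in the oviduct, against 98.0% and 98.3% in the uterus. Mesenchyme was led by Aldh1a1 in the oviduct (68.5% and 69.4%) and by Aldh1a2 in the uterus (89.0% and 86.4%). Epithelium was led by Aldh1a3 in the oviduct (87.3% and 90.5%) and by Aldh1a1 in the uterus (63.0% in both libraries, of 27 and 73 UMIs, with exact 95% intervals of 42.4% to 80.6% and 50.9% to 74.0%). Without cells holding a multiciliated marker, uterine library 1 had 8 UMIs of Aldh1a1 and 10 of Aldh1a3, and library 2 had 30 and 17. Smooth muscle showed the same organ pattern as mesenchyme, with Aldh1a1 at 64.9% and 70.2% in the oviduct and Aldh1a2 at 83.1% and 88.1% in the uterus. Smooth muscle cells held 3755 to 4680 CPM of the mesenchymal markers in sum, and the part of this overlap in the likeness was not tested.

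**Figure D2:**
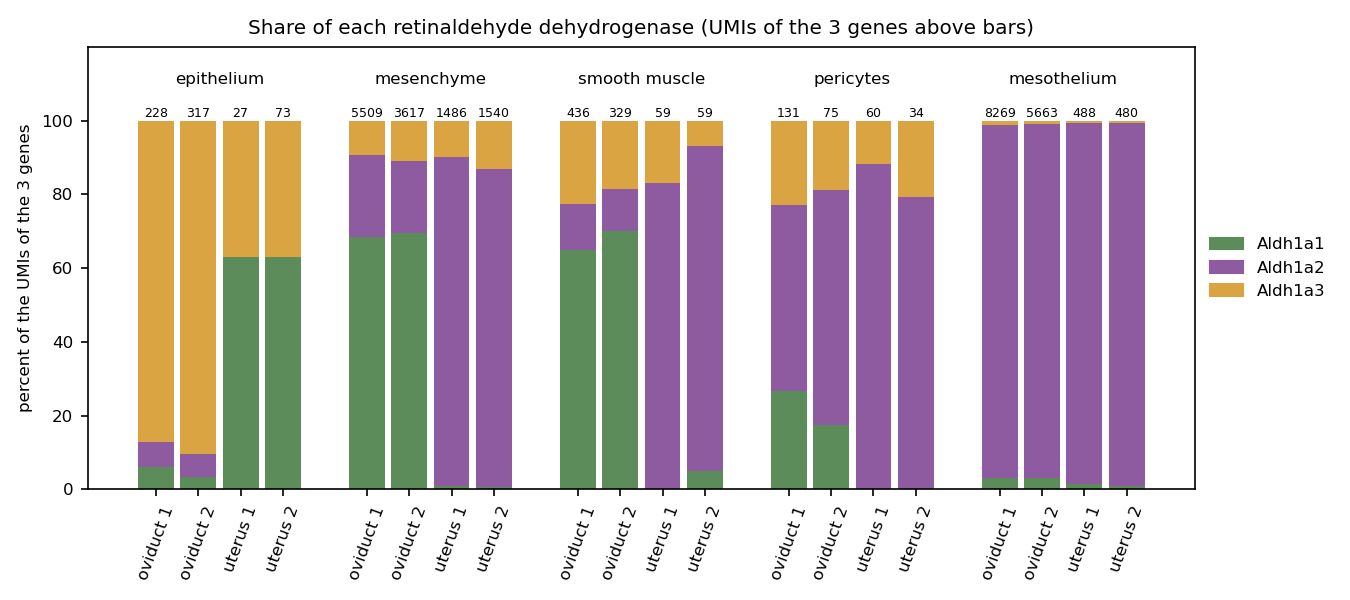
Share of Aldh1a1, Aldh1a2 and Aldh1a3 in the summed UMIs of the 3 genes (percent), for 5 cell classes and 4 libraries, with the number of UMIs above each bar. Oviduct mesenchyme was mostly Aldh1a1 (68.5% and 69.4%), uterine mesenchyme mostly Aldh1a2 (89.0% and 86.4%), and mesothelium almost all Aldh1a2 in both organs.

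Within oviduct mesenchyme, Aldh1a1 and Aldh1a2 were highest in different clusters. Mesenchymal cells were grouped by clusters made without the 9 genes, and 9 clusters had at least 50 cells in both oviduct libraries. Cluster 0, the largest with 1231 and 792 cells and led by Wfdc1, Notum and Col7a1, held 155 and 173 CPM of Aldh1a1 and 3.78 and 3.05 CPM of Aldh1a2. Cluster 13, led by the neurofilament genes Nefm and Nefl and by Cxcl13, held 4.22 and 3.42 CPM of Aldh1a1 and 126 and 93.4 CPM of Aldh1a2. Cluster 13 also had the highest Crabp1 of these clusters, at 422 and 264 CPM. Cluster 6, led by Angptl7, Rbp4 and Ptger3, was low in Aldh1a1 (3.8 and 5.11 CPM), intermediate in Aldh1a2 (25.0 and 28.1 CPM) and highest in Aldh1a3 (29.7 and 32.8 CPM). Stra6 followed Aldh1a1 in these 3 clusters, at 76.7 and 69.3 CPM in cluster 0, 4.01 and 3.76 CPM in cluster 13 and 4.79 and 2.34 CPM in cluster 6. Other clusters held both genes. Cluster 4, led by histone genes, had 90.2 and 92.2 CPM of Aldh1a1 with 19.8 and 17.8 CPM of Aldh1a2, and cluster 7 had 40.9 and 54.0 with 22.2 and 12.7 CPM. Split by cell, the 1252 and 855 oviduct mesenchymal cells with a UMI of Aldh1a1 held 4.64 and 3.74 CPM of Aldh1a2, and the 2283 and 1816 cells without one held 42.1 and 34.9 CPM. The cells with a UMI were the deeper ones (medians of 13501 and 12593 against 11690 and 10361 UMIs). Over the 9 clusters the rank correlation of Aldh1a1 and Aldh1a2 was -0.90 in oviduct library 1 and -0.77 in library 2, as a description of clusters that share a library.

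The neurofilament genes that lead cluster 13 can also be used to split single cells, which restates that cluster and is no separate support. In the 349 and 208 oviduct mesenchymal cells with both Nefl and Nefm detected, Aldh1a2 stood at 132 and 99.4 CPM and Aldh1a1 at 9.95 and 3.36 CPM. In the 2830 and 2185 cells with neither, Aldh1a2 stood at 12.9 and 15.4 CPM and Aldh1a1 at 96.3 and 95.6 CPM. Median depths were close, at 12851 and 10912 UMIs with both genes and 12310 and 10843 with neither. Uterine mesenchyme had 11 cells with both genes in each library. Uterine clusters varied less in Aldh1a1 and Aldh1a2, though not in Crabp1 or Rdh10. All 6 with at least 50 cells per library held 23.6 to 79.2 CPM of Aldh1a2 and at most 1.23 CPM of Aldh1a1. Cluster 18, led by Pcdh10, Ntng1 and Grm7, had the most Crabp1 (556 and 533 CPM) and the least Rdh10 (17.8 and 30.1 CPM) of the uterine clusters.

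**Figure D3:**
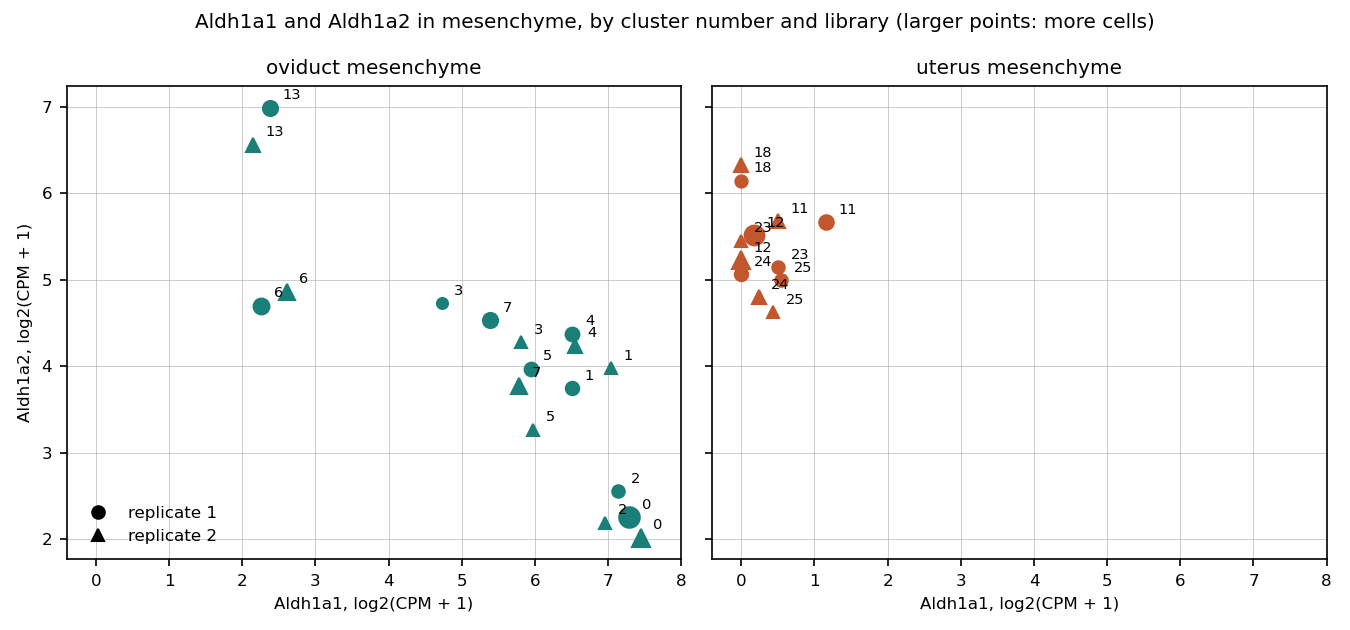
Aldh1a1 (x axis) and Aldh1a2 (y axis), both as log2(CPM + 1), in mesenchymal cells summed per cluster and library, with cluster numbers beside the points (larger points, more cells; circles, replicate 1; triangles, replicate 2). In the oviduct, cluster 13 sits at the upper left (126 and 93.4 CPM of Aldh1a2) and cluster 0 at the lower right (155 and 173 CPM of Aldh1a1), while all uterine clusters lie at the left edge.

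Rdh10, which makes retinaldehyde and so feeds the ALDH1A enzymes, was higher in the stroma and muscle of the uterus. Mesenchyme held 22.2 and 24.1 CPM in the oviduct and 100.7 and 95.03 CPM in the uterus. Smooth muscle held 17.8 and 14.4 CPM in the oviduct and 78.9 and 65.2 CPM in the uterus. The organs did not overlap in either class, with log2 differences of -2.12 ± 0.08 and -2.20 ± 0.15 (edgeR adjusted p = 6.06e-09 and 1.24e-06), means 4.23-fold and 4.48-fold higher in the uterus. In mesothelium the difference was -0.60 ± 0.14 (66.5 and 79.3 against 107 and 115 CPM, edgeR adjusted p = 0.0183), not called without uterus replicate 2 (0.0794). Pericytes had a difference of -0.79 (adjusted p = 0.149), which was called with the replicate number as a block (-0.85, adjusted p = 0.0208), without a filter on low counts (0.039) and with doublets kept (-1.12, adjusted p = 0.00649). In blood endothelium Rdh10 was at 6.81 and 7.93 against 5.24 and 3.91 CPM (adjusted p = 0.324).

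Rdh10 in epithelium pointed the other way. Oviduct epithelium held 30.6 and 46.6 CPM and uterine epithelium 29.0 and 21.2 CPM, with a narrow gap between the organs. With each cell weighted equally the organs overlapped, at 38.2 and 40.4 against 29.6 and 38.5 CPM. The difference of 0.81 ± 0.26 was called (edgeR adjusted p = 0.0366) but not by DESeq2 (0.151), with classes from clusters (0.0642), without oviduct replicate 2 (0.328) or without uterus replicate 2 (0.159). It was larger, 1.47, without cells holding a multiciliated marker (adjusted p = 0.0112). The organ effects of epithelium and mesenchyme differed by 2.99 ± 0.20 (edgeR interaction, adjusted p = 7.57e-19). This includes the mesenchymal difference of -2.12, so it does not test the epithelial difference on its own. Epithelium was above mesenchyme by 0.73 ± 0.12 in the oviduct and below it by 2.26 ± 0.16 (log2 -2.26) in the uterus (edgeR adjusted p = 1.9e-07 and 5.44e-19). Mesothelium was above mesenchyme by 1.54 ± 0.08 in the oviduct (adjusted p = 6.53e-13) and at -0.04 ± 0.10 from it in the uterus (adjusted p = 0.786). Rdh10 lies on chromosome 1 at 16105774 to 16133734.

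Dhrs3, which works against Rdh10, was detected in all 7 classes and was called between organs in 4 of them. In the sums myeloid cells had the highest level in both organs (92.5 and 72.8 CPM in the oviduct, 69.1 CPM in both uterine libraries). With each cell weighted equally, uterine myeloid cells (56.0 and 67.1 CPM) did not exceed uterine epithelium (65.2 and 67.6 CPM). In the sums epithelium came next, with 39.0 and 31.7 CPM in the oviduct and 67.2 and 61.5 CPM in the uterus. With equal weighting, oviduct epithelium (31.1 and 27.6 CPM) lay below oviduct blood endothelium (32.7 and 31.2 CPM). Oviduct myeloid cells then stood at 94.9 and 32.1 CPM. The epithelial difference of -0.72 ± 0.18 was called (edgeR adjusted p = 0.0102) but not by DESeq2 (0.0738) or without oviduct replicate 2 (0.142). Dhrs3 was higher in uterine smooth muscle (-0.98 ± 0.16, edgeR adjusted p = 0.00127) and in oviduct mesothelium (1.06 ± 0.24, adjusted p = 0.0169) and pericytes (1.13 ± 0.24, adjusted p = 0.0103). DESeq2 called neither of the last 2 (0.124 and 0.303). The mesothelial call was also lost with doublets kept (0.0577) and without uterus replicate 1 (0.102), and the pericyte call without oviduct replicate 1 (0.0863), uterus replicate 1 (0.0621) or uterus replicate 2 (0.156). In mesenchyme the organs overlapped, at 16.3 and 19.3 against 14.3 and 17.9 CPM (adjusted p = 0.558), as they did in blood endothelium at 28.2 and 28.8 against 33.8 and 23.5 CPM (adjusted p = 0.967). Within oviduct mesenchyme cluster 13 held 50.5 and 52.7 CPM and cluster 0 held 4.11 and 4.63 CPM. Dhrs3 lies on chromosome 4 at 144892827 to 144928209.

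Stra6, the retinol receptor, was highest in epithelium in the uterus and in mesothelium in the oviduct. Uterine epithelium held 114.5 and 109.3 CPM and oviduct epithelium 12.0 and 2.80 CPM. Oviduct mesothelium held 56.9 and 58.8 CPM and uterine mesothelium 27.8 and 12.2 CPM. The organs did not overlap in either class. The difference was -3.85 ± 0.37 in epithelium (edgeR adjusted p = 1.24e-05), a 15.1-fold higher mean in the uterus, and 1.53 ± 0.24 in mesothelium (adjusted p = 0.00187), a 2.89-fold higher mean in the oviduct. Single libraries moved both sizes, the first to -5.14 without oviduct replicate 1 and -3.07 without oviduct replicate 2, the second to 2.25 without uterus replicate 1 and 1.07 without uterus replicate 2, all called. In mesenchyme the organs were close, at 36.3 and 30.6 against 44.3 and 38.3 CPM. That difference of -0.34 ± 0.10 was called (edgeR adjusted p = 0.0183) but not under a stricter gate (0.0695), without oviduct replicate 2 (0.12) or without uterus replicate 1 (0.0966). The order of layers therefore changed with the organ. Epithelium was below mesenchyme by 2.28 ± 0.18 (log2 -2.28) in the oviduct and above it by 1.18 ± 0.14 in the uterus (edgeR adjusted p = 1.94e-17 and 7.52e-11), and mesothelium was above it by 0.68 ± 0.09 in the oviduct and below it by 1.27 ± 0.20 (log2 -1.27) in the uterus (adjusted p = 3.39e-06 and 3.65e-05). The epithelial gap in the oviduct ran from -1.62 to -3.40 when either oviduct library was left out. Leaving out uterine library 1 widened the mesothelial gap in the uterus to -1.90, and leaving out library 2 narrowed it to -0.89. Stra6 was low in smooth muscle (6.68 and 6.77 against 5.90 and 7.01 CPM, adjusted p = 0.999) and pericytes (2.95 and 3.36 against 4.72 and 4.50 CPM, adjusted p = 0.58). With doublets kept the pericyte difference was -1.69 and called (adjusted p = 0.0112). A UMI of Stra6 was found in 12.3% and 4.92% of oviduct epithelial cells (median depths 17334 and 12130 UMIs) and in 44.2% and 40.7% of uterine ones (5537 and 2817 UMIs), so the uterine share was higher in shallower cells. Stra6 lies on chromosome 9 at 58063788 to 58153996 and overlaps Ccdc33 on the opposite strand and Gm16131 on the same strand.

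Crabp1, a cytoplasmic binder of retinoic acid, was high in mesenchyme and pericytes in both organs and in epithelium in the uterus. Uterine epithelium held 124 and 108 CPM and oviduct epithelium 10.0 and 4.90 CPM. Mesenchyme held 190 and 134 CPM in the oviduct and 266 and 255 CPM in the uterus. Both layers were higher in the uterus without overlap, by -3.84 ± 0.25 in epithelium and -0.72 ± 0.14 in mesenchyme (edgeR adjusted p = 6.71e-07 and 0.00132). The epithelial effect was larger by 3.03 ± 0.20 (log2 -3.03, edgeR interaction, adjusted p = 1.02e-19). Of the Crabp1 UMIs of oviduct epithelium, free RNA could account for an estimated 25.5% and 36.4%, and of those of uterine epithelium for 6.09% and 5.44%. Pericytes stood at 119 and 144 CPM in the oviduct and 141 and 152 CPM in the uterus, with overlap (adjusted p = 0.455). In smooth muscle the difference of -0.55 ± 0.21 was not called (adjusted p = 0.0851), but was with the replicate block (-0.61, adjusted p = 0.000122), without a filter on low counts (0.000307), with classes from clusters (0.0491) and without oviduct replicate 1 (-1.05, adjusted p = 8.82e-06). In mesothelium the uterine libraries disagreed, with 2.65 and 38.7 CPM, and the oviduct values of 12.9 and 11.0 CPM lay between them (adjusted p = 0.488). Free RNA could account for an estimated 100% and 16.8% of the Crabp1 UMIs of uterine mesothelium (4 and 57 UMIs), and for 50.7% and 23.9% of those of oviduct mesothelium. Without uterus replicate 2 the mesothelial difference was 2.19 and without uterus replicate 1 it was -1.68. It was -0.90 without oviduct replicate 1, and was called without a filter on low counts (-0.72, edgeR adjusted p = 0.0382). Crabp1 lies on chromosome 9 at 54764748 to 54773110.

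Crabp2, which carries retinoic acid to its nuclear receptors, was highest in uterine epithelium. There it stood at 161 and 186 CPM, against 60.9 and 22.7 CPM in oviduct epithelium. Smooth muscle was next in the uterus at 60.7 ± 3.52 CPM (SD, n = 2). In the oviduct smooth muscle and epithelium overlapped, at 48.4 and 35.7 CPM in the first. The epithelial difference was -1.94 ± 0.32 (edgeR adjusted p = 0.000854). Leaving out oviduct library 1 widened it to -2.78, and leaving out library 2 narrowed it to -1.37. It was -1.25 and not called without cells holding a multiciliated marker (edgeR adjusted p = 0.0587). Mesenchyme (34.2 and 25.1 against 43.3 and 43.3 CPM) and smooth muscle differed by -0.58 ± 0.12 and -0.57 ± 0.15 (edgeR adjusted p = 0.00309 and 0.0208), the second not called by DESeq2 (0.0757), without oviduct replicate 2 (0.187) or without uterus replicate 1 (0.0776). In pericytes Crabp2 was higher in the oviduct, at 12.8 and 10.1 against 5.58 and 3.46 CPM (1.34 ± 0.37, edgeR adjusted p = 0.0497), which was called in none of the fits that left out 1 library, nor by DESeq2 (0.656) or with doublets kept (0.43, adjusted p = 0.435). In mesothelium the organs overlapped, at 21.3 and 14.5 against 15.9 and 19.7 CPM (adjusted p = 0.964). Epithelium exceeded mesenchyme by 1.74 ± 0.12 in the uterus (adjusted p = 4.11e-19) and by 0.40 ± 0.13 in the oviduct (adjusted p = 0.00396), and the second was not called by DESeq2 (0.33, adjusted p = 0.325) and fell to -0.10 without oviduct replicate 1. Crabp2 lies on chromosome 3 at 87948666 to 87953376.

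**Figure D4:**
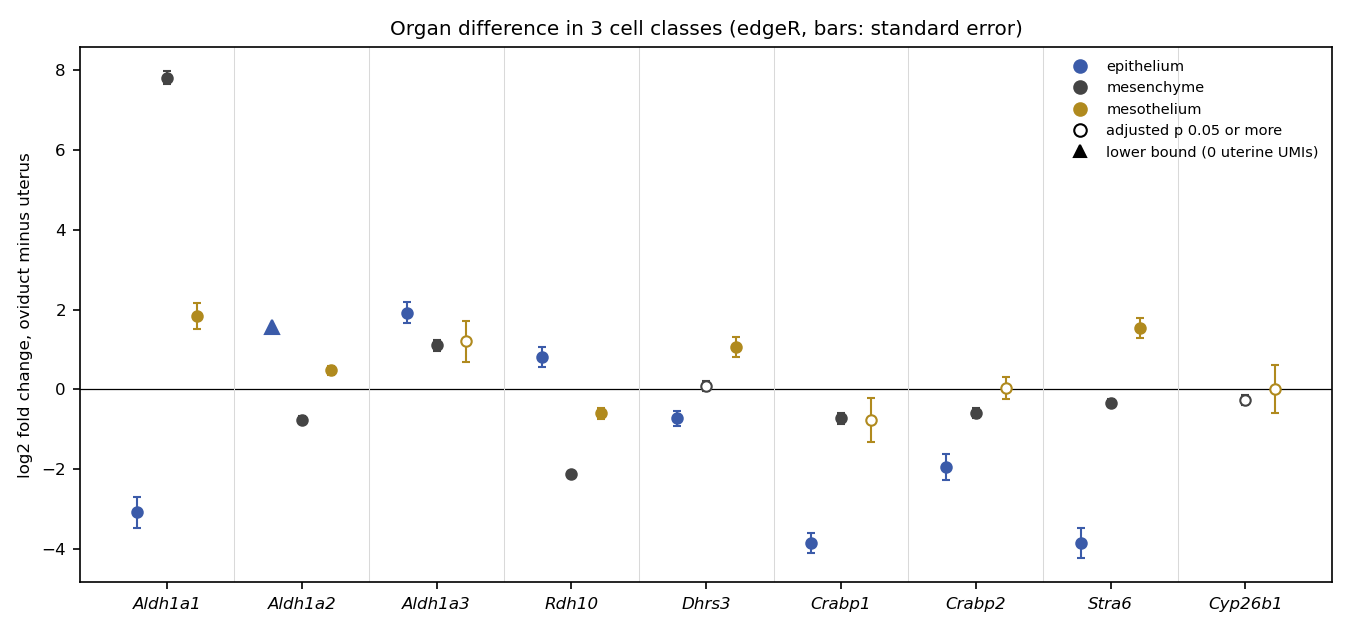
Organ difference (log2 fold change, oviduct minus uterus, with its standard error) of the 9 genes in epithelium, mesenchyme and mesothelium. Filled points had an adjusted p under 0.05, and the triangle for Aldh1a2 in epithelium is the lower bound set by 0 uterine UMIs. In epithelium Stra6, Crabp1 and Aldh1a1 sit at -3.85, -3.84 and -3.07, while Aldh1a1 in mesenchyme sits at 7.80.

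Stra6, Crabp1, Aldh1a1 and Crabp2 were thus the members highest in uterine against oviduct epithelium. Their promoters are shown to give the sequence in front of genes that differed in the same direction, with the letters of half-sites of retinoic acid receptors in capitals (the motif AGGTCA, the motif GGGTCA, the motif AGTTCA and the motif GGTTCA, searched on both strands). The 250 bases before the start nearest to the principal transcript were taken from a table of RefSeq promoters (GRCm38.p6) for 6 members, Aldh1a1, Aldh1a2, Dhrs3, Crabp1, Stra6 and Cyp26b1. Those of Aldh1a3, Rdh10 and Crabp2 were not used here. The windows lie at chr9:58128838-58129087 (Stra6), chr9:54764498-54764747 (Crabp1) and chr19:20601718-20601967 (Aldh1a1), all on the plus strand. Among the RefSeq promoters 4 starts are listed for Stra6, 2 for Aldh1a1 and 1 for Crabp1. Only 1 window per gene was read, and for Stra6 and Aldh1a1 it lies inside the locus given above.
Stra6: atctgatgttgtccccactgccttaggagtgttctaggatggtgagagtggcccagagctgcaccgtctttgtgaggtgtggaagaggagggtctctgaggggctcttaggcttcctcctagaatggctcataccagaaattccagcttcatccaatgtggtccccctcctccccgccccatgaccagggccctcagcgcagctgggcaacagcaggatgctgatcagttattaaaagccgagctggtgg
Crabp1: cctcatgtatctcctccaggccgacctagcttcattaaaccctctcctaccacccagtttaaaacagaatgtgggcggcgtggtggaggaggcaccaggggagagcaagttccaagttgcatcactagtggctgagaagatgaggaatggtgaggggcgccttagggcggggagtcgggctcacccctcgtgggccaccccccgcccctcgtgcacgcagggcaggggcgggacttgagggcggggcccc
Aldh1a1: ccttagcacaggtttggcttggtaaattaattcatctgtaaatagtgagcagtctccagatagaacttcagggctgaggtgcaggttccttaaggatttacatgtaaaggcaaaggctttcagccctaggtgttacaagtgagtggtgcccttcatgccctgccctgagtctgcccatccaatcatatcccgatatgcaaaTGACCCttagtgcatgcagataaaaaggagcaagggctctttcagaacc
The Aldh1a1 window held 1 half-site, 49 bases before the start and on the minus strand, and those of Stra6 and Crabp1 held none. Of all 32851 windows of the same length in the table, 38.6% held at least 1 half-site and 0.426% held 2 in the same direction spaced by 1, 2 or 5 bases. The windows of Aldh1a2, Dhrs3 and Cyp26b1 held none, which says only that these letters are not in these windows.

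Multiciliated cells are the ciliated type of oviduct epithelium, and their markers summed to 166.5 and 118.3 CPM in oviduct epithelium and to 13.7 and 8.37 CPM in uterine epithelium. Cells with a UMI of a marker are deeper by selection, and the 73 and 145 oviduct epithelial cells with no UMI of the 5 markers gave 21.7% and 24.6% of the epithelial UMIs. In the 40 and 52 uterine cells without these markers the share was 48.1% and 59.8%. Without marker-holding cells, Stra6 stood at 28.9 and 1.71 CPM in the oviduct and at 132 and 102 CPM in the uterus (log2 -3.00, edgeR adjusted p = 0.00255). Crabp1 stood at 27.2 and 6.83 against 147 and 117 CPM (-2.95, adjusted p = 0.000184), and Aldh1a3 at 57.8 and 51.3 against 15.9 and 14.0 CPM (1.98, adjusted p = 0.000798). In this restricted set 5 members were called of the 7 tested, against 668 of 9333 genes. The 10 deepest cells gave 70.9% and 72.6% of the uterine epithelial UMIs, and 42.3% and 26.2% of the oviduct ones. With each cell weighted equally, mean Stra6 was 7.12 and 2.31 CPM in the oviduct and 54.5 and 76.6 CPM in the uterus, and mean Crabp1 was 11.5 and 8.98 against 130 and 107 CPM. Mean Aldh1a3 was 42.4 and 28.4 against 1.03 and 3.37 CPM, a wider gap than in the sums, while the Rdh10 values overlapped.

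**Figure D5:**
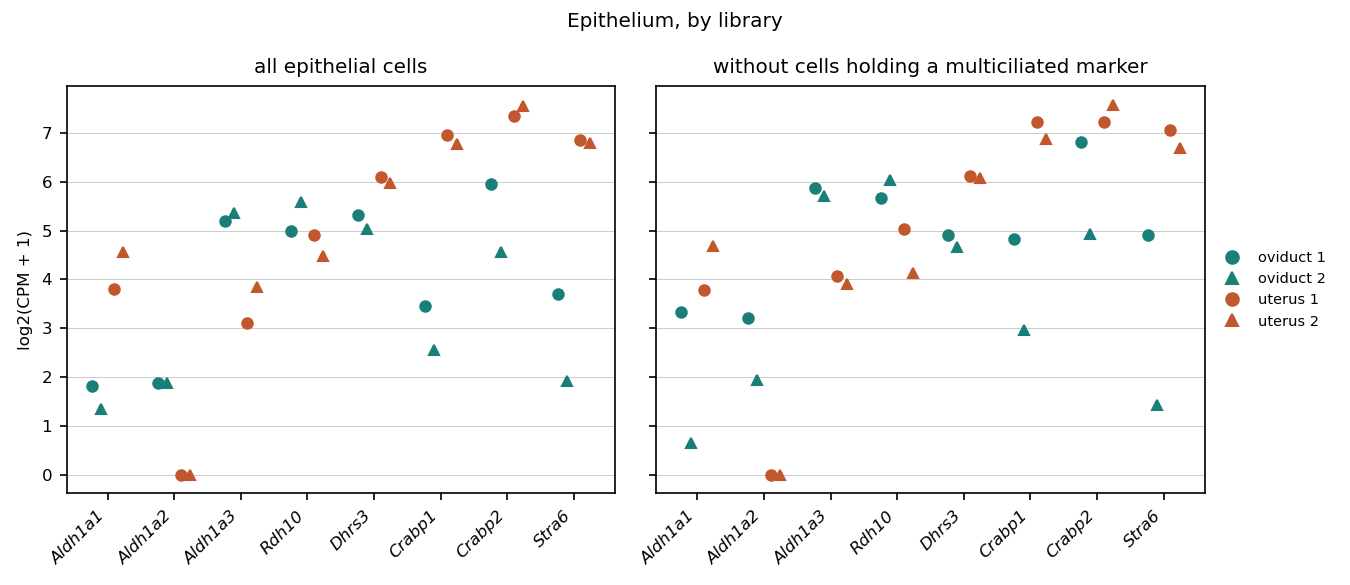
Levels of 8 genes in epithelium, as log2(CPM + 1) per library, in all epithelial cells (left) and without cells holding a UMI of a multiciliated marker (right). Crabp1 and Stra6 stay above the oviduct values in both uterine libraries in both panels (114.5 and 109.3 CPM for Stra6 on the left, 132 and 102 CPM on the right).

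Cyp26b1, the breakdown enzyme, was low in every class. Its highest levels were in oviduct blood endothelium (12.9 and 13.2 CPM) and smooth muscle (11.6 and 8.35 CPM). In uterine endothelium the libraries differed, at 2.88 and 12.1 CPM. No organ difference was called by edgeR (adjusted p = 0.0841 in smooth muscle, 0.0967 in mesenchyme, 0.276 in endothelium, 0.298 in pericytes and 0.995 in mesothelium). The smooth muscle difference of 0.79 ± 0.30 was called with the replicate block (0.77, adjusted p = 0.0275), without a filter on low counts (0.0158), with classes from clusters (0.0394) and without oviduct replicate 2 (1.01, adjusted p = 0.0105), and the endothelial one without uterus replicate 2 (2.23, adjusted p = 3.73e-05). Oviduct epithelium held 18 UMIs and uterine epithelium 1, which gave a ratio of 4.73 (95% exact interval 0.75 to 197). Cyp26b1 lies on chromosome 6 at 84571414 to 84593908.

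Other genes of the pathway were counted as 4 lists of 41 genes in all. Of the 7 receptor genes 6 were tested in epithelium and in mesenchyme. Rara was called in both, higher in the oviduct (61.0 ± 4.01 against 30.5 ± 5.49 CPM in epithelium, SD, n = 2, log2 1.17, edgeR adjusted p = 0.000767). In epithelium it was the only receptor gene called, 1 of 6 against 23.4% of all genes. In mesenchyme Rarb (0.87) and Rarg (0.29) were also higher in the oviduct and Rxrb (-0.23) in the uterus, 4 of 6 called against 43.9% of all genes. The list of retinol transport, storage and oxidation held 23 genes, of which Rbpr2 was not matched to a symbol in the tables. In epithelium 6 of 11 tested were called, all higher in the oviduct, against 23.4% of all genes (1676 of the 2762 called genes were higher there). The list median was 0.64 against 0.01 for all genes. Among the 6 called were Adh1 (20.3-fold by UMIs, 95% exact interval 6.86 to 99.2), Adh7, Dhrs9, Dhrs7 and Lrat. Lrat, which stores retinol as esters, had 49 oviduct UMIs and 0 uterine ones, so it was at least 4.29-fold higher. Adh1, Dhrs9 and Adh7 had 3, 3 and 4 uterine UMIs. These genes and Lrat passed the filter on low counts through the oviduct, so their calls could only point there. Mesothelial and multiciliated markers were also higher in oviduct epithelium, and their part in this list was not tested.

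In mesenchyme 7 of 14 genes of that list were called, a share near the 43.9% of all genes and with a list median of 0.09, 5 upward in the oviduct (among them Rbp4, Dhrs7, Adh1 and Adh7) and 2 upward in the uterus (Rdh13 and Adh5). Adh1, a retinol oxidase, stood at 19.0 ± 6.85 CPM in oviduct and 2.72 ± 0.506 CPM in uterine mesenchyme (SD, n = 2, log2 2.79, edgeR adjusted p = 3e-06). Rbp4, the carrier that STRA6 recognises, stood at 35.6 ± 2.40 against 14.7 ± 2.77 CPM. Of the breakdown and other binding genes, Cyp26a1 had 40 UMIs in oviduct mesenchyme and 0 in the uterus (at least 11.3-fold higher), and Fabp5 was higher in the oviduct by 0.74. Genes known to respond to retinoic acid were called for 4 of 5 tested in epithelium (23.4% of all genes), all higher in the oviduct (Tgm2, Rarres2, Nrip1 and Meis2). Tgm2 and Rarres2 had 2 and 5 UMIs in uterine epithelium, so they passed the filter on low counts through the oviduct and their calls could only point there. In the oviduct they stood at 4.32 and 13.1 CPM in epithelium, against 226 and 1174 CPM in mesothelium. Mesothelial and multiciliated markers were also higher in oviduct epithelium (mesothelial 204 and 223 against 71.8 and 42.3 CPM in sum), and their part in these 4 differences was not tested. In mesenchyme 6 of 7 were called (43.9% of all genes), 5 higher in the oviduct (among them Tgm2, Rarres2, Nrip1 and Meis1) and Meis2 higher in the uterus (269 ± 3.05 against 446 ± 9.68 CPM, SD, n = 2, log2 -0.77, edgeR adjusted p = 1.2e-05). In smooth muscle 1 of 6 receptor genes, 5 of 10 transport and oxidation genes, 1 of 1 breakdown gene and 2 of 5 responders were called, against 19.9% of all genes. There 4 of the 5 transport and oxidation calls were higher in the uterus (list median -0.37), and the responder calls were split 1 and 1. Lrat, among these 4, had 1 oviduct UMI and 15 uterine ones. It passed the filter on low counts through the uterus, so its call could only point there. In mesothelium 1 of 6, 3 of 11, 1 of 1 and 3 of 6 were called, against 7.99% of all genes, with 1 responder call higher in the uterus and the rest higher in the oviduct. The responder medians were 1.24 in epithelium, 0.62 in mesenchyme, -0.11 in smooth muscle and 0.35 in mesothelium. Meis2 thus differed in opposite directions in the 2 layers (1.24 in epithelium).

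The genes whose levels were most like each member over the 28 sums of 7 classes and 4 libraries are given as a description, since the sums share libraries. For Aldh1a1 these were Dsc2, Fst and Mrln (Pearson r 0.88, 0.86 and 0.85 of log2(CPM + 1)). For Aldh1a2 they were Nxph3, Cadm3 and Slitrk4 (0.95, 0.95 and 0.94), and for Aldh1a3 Kcnk1, Dlgap1 and Gabra2 (0.90, 0.89 and 0.88). Rdh10 was most like Slc37a3, Naprt and Efna5 (0.94, 0.91 and 0.91), and Dhrs3 most like H2afj, Ppm1h and Cndp2 (0.90 each). Crabp1 was most like Plppr3, Camk1g and Ccdc141 (0.89, 0.89 and 0.87). Crabp2 was most like Fgfr2, Kif5c and B4galnt4 (0.93, 0.92 and 0.90), and Stra6 most like Tpi1, Igfbp2 and Kif5c (0.85, 0.84 and 0.84), so that Kif5c stood in the lists of both.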

How the data were processed

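UMI counts per gene and barcode, as deposited by the authors, were read from the filtered matrices. They were made with Cell Ranger on mm10 (version 6.0.1 per the file headers). Seurat 4.2.3 is listed in the submitters' processing notes. Reads shared by near-identical genes are treated in a way not given in the sources used here. Barcodes under 500 genes or above 15% mitochondrial UMIs were dropped, and the highest Scrublet scores were removed at 0.8% per 1000 barcodes, since Scrublet's own threshold marked 0 to 2 cells per library. Each cell was classed by fixed marker lists (at least 4 markers of a class and a lead of 25 percentage points over other classes). This rule was set after seeing clusters. Leiden clusters (scanpy 1.11.5, resolution 1, 2000 variable genes without the 9 members) were an alternative. Cells of high haemoglobin (1350), between mesenchyme and smooth muscle (1419), with markers of more than 1 or of another class (109 and 51) and unassigned cells (2196) were left out.

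Counts summed per library and class were tested with edgeR 4.0.16 (TMM scaling, filterByExpr, quasi-likelihood test, 2-sided, Benjamini-Hochberg over all genes tested), with organ as the only term, or a term per library for class differences and interactions. The standard error is the fold change over the root of the F value. The test was checked on simulated counts. The 2 libraries per organ are pools, so no p-value measures the spread between animals. With so few libraries edgeR also borrows the spread of other genes, so p-values do not measure the spread between pools alone. Fits without 1 library hold 1 library of that organ. Their adjusted p-values are a description and do not cover the spread between its pools. Epithelial and mesenchymal sums of 1 library share its animals. The series text says that both organs came from the same neonates, and this pairs the replicate numbers. Same-numbered libraries deviated together with correlations of -0.07 to 0.19 over genes. Libraries of 1 organ differed by more than counting error. Free RNA was estimated from droplets with at most 100 UMIs in the raw matrices, whose headers name Cell Ranger 4, scaled to marker lists a class lacks (0.714% to 11.2% of UMIs per class and library). Intervals are exact at 95% and cover counting error only, as does the floor of 3 counts.

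Each member is named in the classes where it was tested. Other pathway genes were counted as lists and named where called in epithelium or mesenchyme. Some of these genes are not reported here. Likeness used tested genes and members with a mean of at least 20 CPM in some class. The members and lists were chosen with earlier results of these data known. DESeq2 1.42.0 and other settings were alternatives. The fit without cells holding a multiciliated marker, and equal weighting of cells, were chosen after seeing the data. In bulk sums, fewer expressing cells and less RNA per cell cannot be told apart.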

Additional observations from a re-analysis of the deposited data

Results flagged for a closer look

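The organ effect differed between classes of cells for 8 of the 9 members, by the edgeR interaction test (adjusted p under 0.05), and these results were picked out for that reason. Between epithelium and mesenchyme the effect (oviduct minus uterus) differed by -10.78 ± 0.45 (SE) for Aldh1a1, -3.46 ± 0.23 for Stra6, -3.03 ± 0.20 for Crabp1, -1.34 ± 0.17 for Crabp2 and -0.73 ± 0.19 for Dhrs3 on the log2 scale, being lower in epithelium. It differed by 2.99 ± 0.20 for Rdh10, 0.93 ± 0.29 for Aldh1a3 and 9.45 for Aldh1a2, being higher in epithelium. The Aldh1a3 difference was not called by DESeq2 (0.222), without oviduct replicate 2 (0.0583), without uterus replicate 1 (0.11) or without cells holding a multiciliated marker (0.141). The value for Aldh1a2 rests on 0 UMIs in uterine epithelium and has no interpretable size. With 1 library left out the Stra6 value ran from -2.80 to -4.58. The Dhrs3 difference was not called by DESeq2 (0.124), without oviduct replicate 2 (-0.48, adjusted p = 0.202) or without uterus replicate 1 (0.133). For Cyp26b1 the interaction was not called (adjusted p = 0.0916). Over all genes 21.3% had such an interaction.

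Between mesothelium and mesenchyme the effect differed by -5.86 ± 0.64 for Aldh1a1, 1.95 ± 0.22 for Stra6, 1.58 ± 0.12 for Rdh10, 1.30 ± 0.11 for Aldh1a2, 1.04 ± 0.27 for Dhrs3 and 0.67 ± 0.20 for Crabp2, against 18.3% of all genes called. Of these, Crabp2 was not called by DESeq2 (0.198), under a stricter gate (0.0949) or without oviduct replicate 1 (0.128), uterus replicate 1 (0.189) or uterus replicate 2 (0.0519). Dhrs3 was not called by DESeq2 (0.0888) or without uterus replicate 1 (0.0674) or 2 (0.0813). Mesenchymal markers summed to 6335 to 10981 CPM in mesothelium, and their part in these differences was not tested. The Stra6 value lay between 1.57 and 2.58 in the fits that left out 1 library.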

How the results depend on the processing

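Over 102 results and 1185 comparisons with an alternative, 1072 kept their direction and side of the threshold, 64 lost a call, 17 gained one, 29 changed sign without being called in either fit, and 3 changed sign where 1 of the fits called them. The last were the Crabp1 organ difference in mesothelium without uterus replicate 2 (2.19, and -1.68 without replicate 1), its interaction with mesenchyme without uterus replicate 1 (-0.90, and 2.99 without replicate 2) and the Crabp2 difference of epithelium from mesenchyme in the oviduct without oviduct replicate 1 (-0.10, and 0.81 without replicate 2). The cause was not tested. Members called in epithelium numbered 5 of 9 tested under DESeq2 (1450 of 18725 genes). They numbered 5 of 7 tested without cells holding a multiciliated marker (668 of 9333 genes). With 1 library left out they numbered 5 (of 7 tested, without oviduct replicate 2) to 8. In pericytes they numbered 1 of 9 tested under DESeq2, 1 of 4 tested with cluster classes (673 of 10486 genes) and under a stricter gate (472 of 10215 genes), and 0 to 2 with 1 library left out. In blood endothelium 1 of 9 tested was called without a filter on low counts (538 of 17715 genes). A call was also gained in each fit that left out a uterine library. Thinning to 2000 UMIs lowered the shares of cells with a UMI, as fewer molecules per cell must: Aldh1a1 to 12.2% (oviduct) and 0.0715% (uterus) and Aldh1a2 to 4.50% and 8.35% in mesenchyme, Aldh1a2 to 53.7% and 43.8% in mesothelium, Crabp1 to 1.07% and 14.5% and Stra6 to 1.48% and 14.4% in epithelium. With doublets kept, Aldh1a2 in oviduct mesothelium was at 96.6%, and under the stricter gate at 97.9%, with Crabp1 and Stra6 in uterine epithelium at 53.8% each. The replicate block changed no other member's organ call than those of Crabp1 and Cyp26b1 in smooth muscle and Rdh10 in pericytes.

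Over all genes DESeq2 called 1450 in epithelium (edgeR 2762), 1246 in smooth muscle (2390), for pericytes 230 (593), for mesothelium 625 (1028), for endothelium 141 (467), 24 in myeloid cells (9), 1518 for the epithelial interaction (3339) and 5986 and 1660 for the oviduct difference and interaction of mesothelium (9355 and 2903). Without a filter 1555 were called in mesothelium and 160 in myeloid cells, with the block 1656 and 60, with cluster classes 297 in endothelium, and with doublets kept 916 in pericytes. Stricter cell filters and less free RNA each gave 6 in myeloid cells. Without cells holding a multiciliated marker 668 were called in epithelium, 6691 for its difference from mesenchyme in the oviduct (10340) and 1224 for the interaction. With 1 library left out the counts fell furthest to 1629 in epithelium (without oviduct replicate 2), 154 in pericytes and 2020 and 1757 for the epithelial and mesothelial interactions, and ran from 0 to 101 in myeloid cells. Depth limits uterine myeloid cells (45 and 30 cells, 390841 and 303930 UMIs), where 1 member could be tested, and uterine epithelium (52 and 59 cells, 1309680 and 2030909 UMIs).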
